A study of Mus musculus with 4 samples.

Results

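The genes of the ATF family and the stress response factors that work with them were read across open chromatin of a mouse macrophage cell line. They are Atf1, Atf2, Atf3, Atf4, Atf5, Atf6, Atf7, Ddit3 (encoding CHOP), Xbp1 and Creb1, which makes 10 of the 21256 protein-coding genes whose strand was known. For each gene, every peak with its summit between 10 kb before the 5′ end and the 3′ end was read from the peak lists of 4 ATAC-seq libraries. The rule names the genes and uses no measured value, but the genes were chosen with earlier results of these data known. ATAC-seq marks open chromatin with the transposase Tn5, which cuts accessible DNA and leaves sequencing adapters on it.

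The cells were RAW264.7 of wild-type genotype, an established line derived from a virus-induced mouse tumor, so all libraries stem from 1 line. In the control group (2 libraries) the solvent DMSO was given with 25 ug/mL DIL-oxLDL, an oxidized low-density lipoprotein that carries a fluorescent dye. The esculetin group (2 libraries) received the same lipoprotein together with 40 ug/mL esculetin, a plant coumarin, and both treatments lasted 24 h. There was no group without the lipoprotein, so the comparison concerns esculetin in loaded cells only. The labels do not say whether the libraries of a group came from separate cultures, so a p-value measures only the spread between these libraries, which may be technical.

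ATF and CREB proteins are basic leucine zipper transcription factors that pair with each other and with relatives such as Jun, Fos and C/EBP proteins, and bind cAMP response elements or composite C/EBP-ATF sites. Several of them carry the unfolded protein response and the integrated stress response. When the initiation factor eIF2 is phosphorylated, most translation falls while ATF4 is translated, and ATF4 then activates Ddit3, Atf3 and Atf5 among others. In the endoplasmic reticulum, the sensor IRE1 splices Xbp1 mRNA into its active form, and ATF6 is cut from the membrane to become a transcription factor. In macrophages, loading with oxidized lipoprotein or free cholesterol is a known trigger of these pathways.

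The bases just before the annotated start were set out for 4 of these genes. Ddit3 was chosen because its promoter had the highest summit coverage among the 10 genes in both esculetin libraries, Atf4 because its peak changed shape between libraries, Atf3 for a composite C/EBP-ATF element, and Atf1 for the largest percentile difference between the groups. The sequences are RefSeq promoters of GRCm38.p6, whose chromosomes are those of mm10, and each has 250 bases that end at the base before the start. Capitals mark the motif letters that were searched on both strands: the cAMP response element (CRE) TGACGTCA, its core TGACG, the CCAAT box CCAAT, the GC box GGGCGG, the AP-1 site TGANTCA and the C/EBP-ATF element TTGCATCA. Ddit3 is shown for chr10:127290543-127290792 on the plus strand, Atf4 for chr15:80254934-80255183 on the plus strand, Atf3 for chr1:191183334-191183583 on the minus strand and Atf1 for chr15:100227609-100227858 on the plus strand.
Ddit3: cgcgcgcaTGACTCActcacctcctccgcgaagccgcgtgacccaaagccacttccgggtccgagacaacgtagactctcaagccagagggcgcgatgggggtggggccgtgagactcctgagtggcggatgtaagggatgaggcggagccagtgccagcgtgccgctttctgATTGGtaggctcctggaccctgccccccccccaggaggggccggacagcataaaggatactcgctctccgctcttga
Atf4: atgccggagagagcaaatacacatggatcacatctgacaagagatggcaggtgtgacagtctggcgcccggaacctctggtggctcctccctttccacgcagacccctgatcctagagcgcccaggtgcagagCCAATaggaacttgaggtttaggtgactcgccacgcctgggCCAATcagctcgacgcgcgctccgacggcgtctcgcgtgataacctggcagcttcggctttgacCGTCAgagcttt
Atf3: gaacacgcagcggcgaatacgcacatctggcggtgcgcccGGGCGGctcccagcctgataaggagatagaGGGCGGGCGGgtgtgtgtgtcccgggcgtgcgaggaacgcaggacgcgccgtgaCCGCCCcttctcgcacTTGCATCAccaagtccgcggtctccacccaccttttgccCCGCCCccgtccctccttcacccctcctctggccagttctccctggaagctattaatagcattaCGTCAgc
Atf1: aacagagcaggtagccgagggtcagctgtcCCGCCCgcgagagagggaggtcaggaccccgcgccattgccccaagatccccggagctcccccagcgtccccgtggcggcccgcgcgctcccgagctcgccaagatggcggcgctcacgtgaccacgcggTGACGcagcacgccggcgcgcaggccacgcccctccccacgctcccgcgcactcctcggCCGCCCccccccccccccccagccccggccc

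The Ddit3 window held an AP-1 site, TGACTCA, 242 to 236 bases before the start, and a CCAAT box read on the other strand as ATTGG, 77 to 73 bases before it. The Atf4 window held CCAAT boxes at 117 to 113 and at 76 to 72 bases before the start and the CRE core on the other strand at 12 to 8. The Atf3 window held TTGCATCA at 110 to 103 bases before the start, 5 GC boxes and a CRE core at 7 to 3. The Atf1 window held a CRE core at 90 to 86 bases before the start and 2 GC boxes. A match is a description of letters and not evidence that a factor was bound.

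Of 9 genes with a promoter sequence in the RefSeq table, Atf5 had 2 annotated starts, which gave 10 windows of 250 bases; Atf6 had no entry. Among the 10 windows, the GC box was found in 7 against 42.6% of all 21263 promoter windows of that length. The CCAAT box was found in 4 against 35.4%, and the CRE core in 3 against 20.2%. The AP-1 site was found in 1 (Ddit3) against 6.13%, and the C/EBP-ATF element in 1 (Atf3) against 0.79%. The full CRE was found in none against 1.92%, and the UPR element TGACGTGG in none against 0.593%. The ER stress element, in which CCAAT and CCACG stand 9 bases apart, was likewise in none, against 0.132% of all windows. The full CRE contains the core, so these counts overlap. The windows ranged from 50.4% (Xbp1) to 77.6% (Atf1) in GC content, against a median of 55.6% over all windows.

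The lists differed in length and in kind before any gene was compared. Control libraries 1 and 2 held 19595 and 27833 peaks, and esculetin libraries 1 and 2 held 8677 and 12792. The background coverage of the genome, which stands in for depth, ran from 4.08 reads in control 2 to 6.51 in control 1, with both esculetin libraries between them. List length thus did not follow this background. How closely it tracks depth was not tested, since the options of the peak caller are not given. Control 2 stood apart by peaks inside genes, so the main counts are given with and without it. Of 10 macrophage marker genes, 5 and 6 had a promoter peak in controls 1 and 2 and 1 and 3 in esculetin 1 and 2. Among all protein-coding genes the shares were 40.8% and 42.2% in the controls and 30.2% and 38.0% in the esculetin libraries. Spi1, the lineage factor, had a promoter peak in all 4 libraries, whereas the defining markers Csf1r, Itgam and Adgre1 had none in any library. No gene of the T cell, B cell, epithelial, fibroblast and endothelial marker lists had a promoter peak in any library. Within the esculetin lists the peak names carry the numbers 2 and 3 where the sample labels say 1 and 2, and the labels were followed.

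Nearly every gene of the group had an open promoter in every library. A promoter peak here is one whose summit lay within 1 kb of an annotated transcription start site (TSS), and where a gene had several, the strongest stands for it. All 10 genes had one in control 1, where 40.8% of protein-coding genes did. In control 2 the count was 9, without Atf4, against 42.2% of all genes. In esculetin 1 it was 9, without Atf6, against 30.2%, and in esculetin 2 it was 10 against 38.0%. Thus 8 of the 10 genes had a promoter peak in all 4 libraries, against 27.0% of all protein-coding genes. Without control 2 the count was 9 of 10, with Atf4 added, against 27.6%. None of the 10 was open in both controls and neither esculetin library, a pattern seen in 3.76% of genes, and none had the opposite pattern, seen in 0.423%.

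To compare promoters between lists of unequal length, each peak was given its percentile, the percent of peaks in the same list with a −log10 p at or below its own. A percentile depends on how long its list is and on what else the list holds. So the coverage at each summit was also solved from the deposited values and divided by the genome background of its library, a ratio that does not depend on the list. With 2 libraries per group, the two-sided exact permutation test cannot give a p below 0.33, so no difference below could reach 0.05.

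By percentile, both esculetin libraries lay above both controls at 5 of the 8 genes open in all 4 libraries (Atf1, Atf2, Atf5, Ddit3 and Xbp1). They lay below both controls at 2 (Atf3 and Atf7), and the groups overlapped at Creb1. At these 7 separated genes the difference of the means exceeded the SD of either group, and at Creb1 it did not. Over the 5735 protein-coding genes with a promoter peak in all 4 libraries, 14.6% lay above and 30.1% lay below. The median difference, esculetin minus control, was 11.8 percentile points over the 8 genes and −4.49 over all 5735. The former became 18.0 without control 2 and 17.7 without esculetin 1. With control 1 as the only control, both esculetin libraries lay above it at 7 of 9 genes (Atf4 and Creb1 added) and below it at Atf3 and Atf7, against 22.1% above and 51.2% below among all genes open in those 3 libraries. By summit coverage over background, 4 of the 8 lay above (Atf1, Atf2, Atf5 and Ddit3), none lay below and 4 overlapped, against 18.2% above and 10.7% below among all genes. The median coverage difference was 2.78 for the 8 genes and 0.266 for all genes. When only promoters open in all 4 libraries were ranked against each other, 5 lay above, 1 (Atf7) lay below and 2 overlapped, against 24.8% above and 24.1% below. The 8 genes were chosen by name, and no p is given over them.

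**Figure D1:**
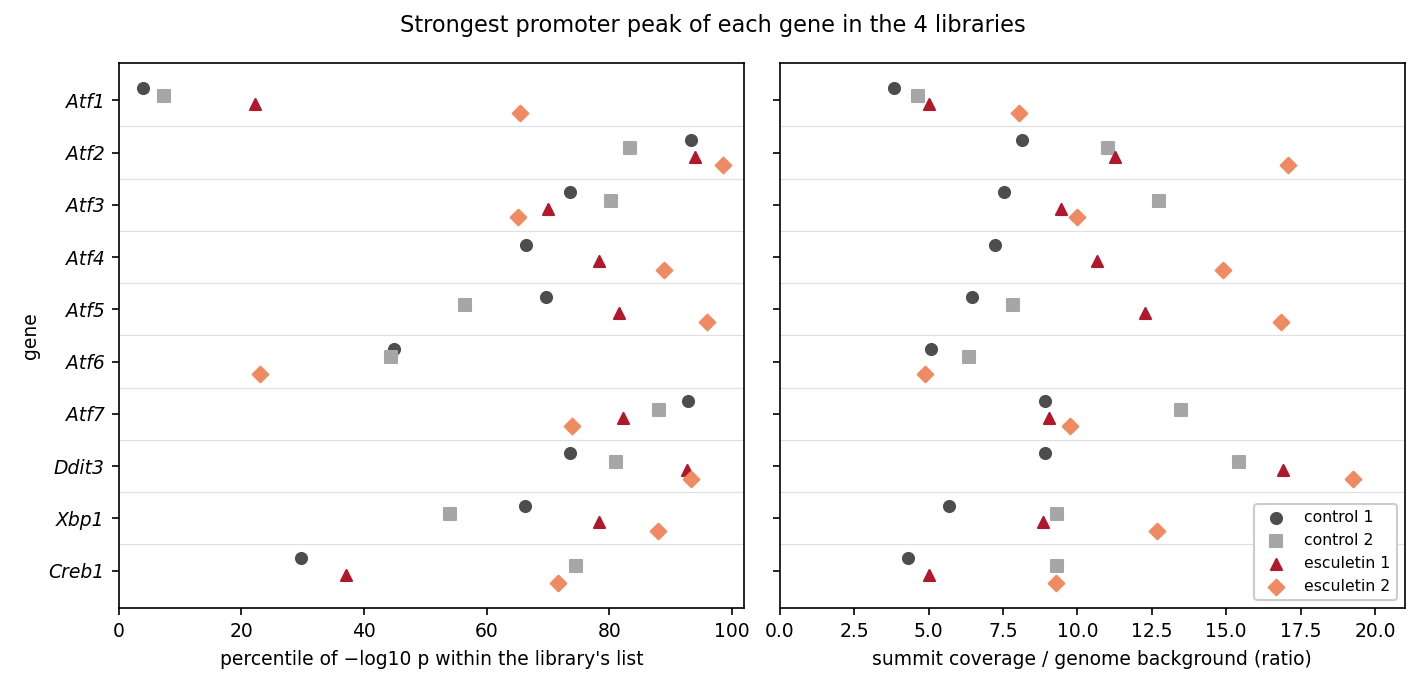
Strongest promoter peak of each gene in the 4 libraries. Left, percentile of −log10 p within the library's own list; right, summit coverage divided by the genome background of the library (a ratio). Grey points are control libraries and red or orange points are esculetin libraries; a missing point means no promoter peak. At Ddit3 both esculetin points lie right of both controls in either panel, at Xbp1 only in the left panel, and at Creb1 the groups overlap in both.

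Ddit3 encodes CHOP, the bZIP factor that accompanies prolonged endoplasmic reticulum stress and cell death. Its promoter percentile was 73.6 in control 1, 81.1 in control 2, 92.8 in esculetin 1 and 93.3 in esculetin 2. Both esculetin libraries were above both controls, and they lay close together. DMSO averaged 77.4 ± 5.31 and esculetin 93.0 ± 0.38 percentile points (SD, n = 2 for both), which differ by 15.7 (exact permutation p = 0.33, the smallest possible). The difference was 25.5 when ranked among promoter peaks and 51.5 when every list was held to its 8677 strongest peaks. The summit coverage was 58, 63, 84 and 79 reads in the same order, with the genome background highest in control 1. Over genome background this was 8.91, 15.4, 16.9 and 19.3, so the separation held on that scale, with control 2 close to esculetin 1. By rank the peak stood at place 5171 of 19595 and 5255 of 27833 in the controls and at 630 of 8677 and 859 of 12792 in the esculetin libraries. The summit lay 129 to 197 bp before the 5′ end in every library, inside the window printed for Ddit3.

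The Ddit3 promoter peak cannot be assigned to Ddit3 alone. The same peak was also the promoter peak of its neighbor Mbd6, a methyl-CpG-binding domain protein gene, in all 4 libraries. A further region, with summits 1415 to 1439 bp before the Ddit3 start, had them nearest another annotated start of Mbd6, which has several, 336 to 360 bp from it. That region had percentiles of 55.7 in control 1, 54.5 in esculetin 1 and 56.6 in esculetin 2 and was not called in control 2. By percentile it differed little between the libraries that held it. Over genome background it stood at 7.83 in control 1, 10.9 in esculetin 1 and 12.0 in esculetin 2.

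Atf4, the translationally controlled factor at the head of the integrated stress response, had promoter peaks of unlike shape. In esculetin 1 and 2 a single peak of 1044 and 1024 bp covered the start, with summits 22 and 69 bp before it, at percentiles 78.4 and 89.0. In control 1 the same stretch was called as 3 short peaks of 260, 214 and 248 bp with summits 86 bp before and 320 and 800 bp past the start. Their percentiles were 49.7, 28.9 and 66.4. The 2 esculetin libraries therefore exceeded control 1 at the start itself, with 53 and 61 summit reads against 41. In control 2 no summit lay within 1 kb of the start. There the strongest peak of Atf4 spanned 1351 bp from 972 to 2322 bp past the 5′ end of a gene 2362 bp long. It reached percentile 99.2 and 178 summit reads, more than any other peak of the 10 genes. Because control 2 had no promoter peak, no difference between groups was computed for Atf4.

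Atf5, a relative of Atf4 that is induced in the same response, showed 1 peak in every library and none elsewhere in its window. Its percentile was 69.6 in control 1, 56.5 in control 2, 81.6 in esculetin 1 and 95.9 in esculetin 2. Each esculetin library thus exceeded each control. DMSO averaged 63.1 ± 9.31 and esculetin 88.8 ± 10.1 percentile points (SD, n = 2 for both), which differ by 25.7 (exact permutation p = 0.33). Over genome background the summit stood at 6.45 and 7.84 in the controls and at 12.3 and 16.8 in the esculetin libraries, the largest coverage difference of the 8 genes (7.40). By percentile of fold enrichment the difference was 14.3 and the groups overlapped, while among promoters open in all 4 libraries it was 56.5. The summit was not in the same place: it lay 363 and 397 bp past the 5′ end in the controls and 709 and 737 bp past it in the esculetin libraries. The former pair was nearest the start of Il4i1b and the latter nearest that of Nup62, a nuclear pore protein gene, whose promoter peak is the same peak. The peak thus lies among the starts of Atf5, Il4i1b and Nup62, and its values cannot be divided among them.

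Atf3, a stress-induced repressor that dampens inflammatory genes in macrophages, lay lower with esculetin by percentile. Its percentile was 73.7 in control 1, 80.4 in control 2, 70.0 in esculetin 1 and 65.1 in esculetin 2. Both esculetin libraries were below both controls, by a small margin. DMSO averaged 77.0 ± 4.74 and esculetin 67.6 ± 3.51 percentile points (SD, n = 2 for both), which differ by −9.45 (exact permutation p = 0.33). When every list was held to its 8677 strongest peaks, the difference turned to +20.5, with both esculetin libraries above both controls. With full lists but without control 2 it was −6.10. Over genome background the values were 7.53, 12.7, 9.46 and 10.0, and the groups overlapped there as they did when ranked among promoter peaks. Summit reads were 49, 52, 47 and 41. A second, weak promoter peak 765 bp past the start was called in control 1 only, at percentile 10.4.

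**Figure D2:**
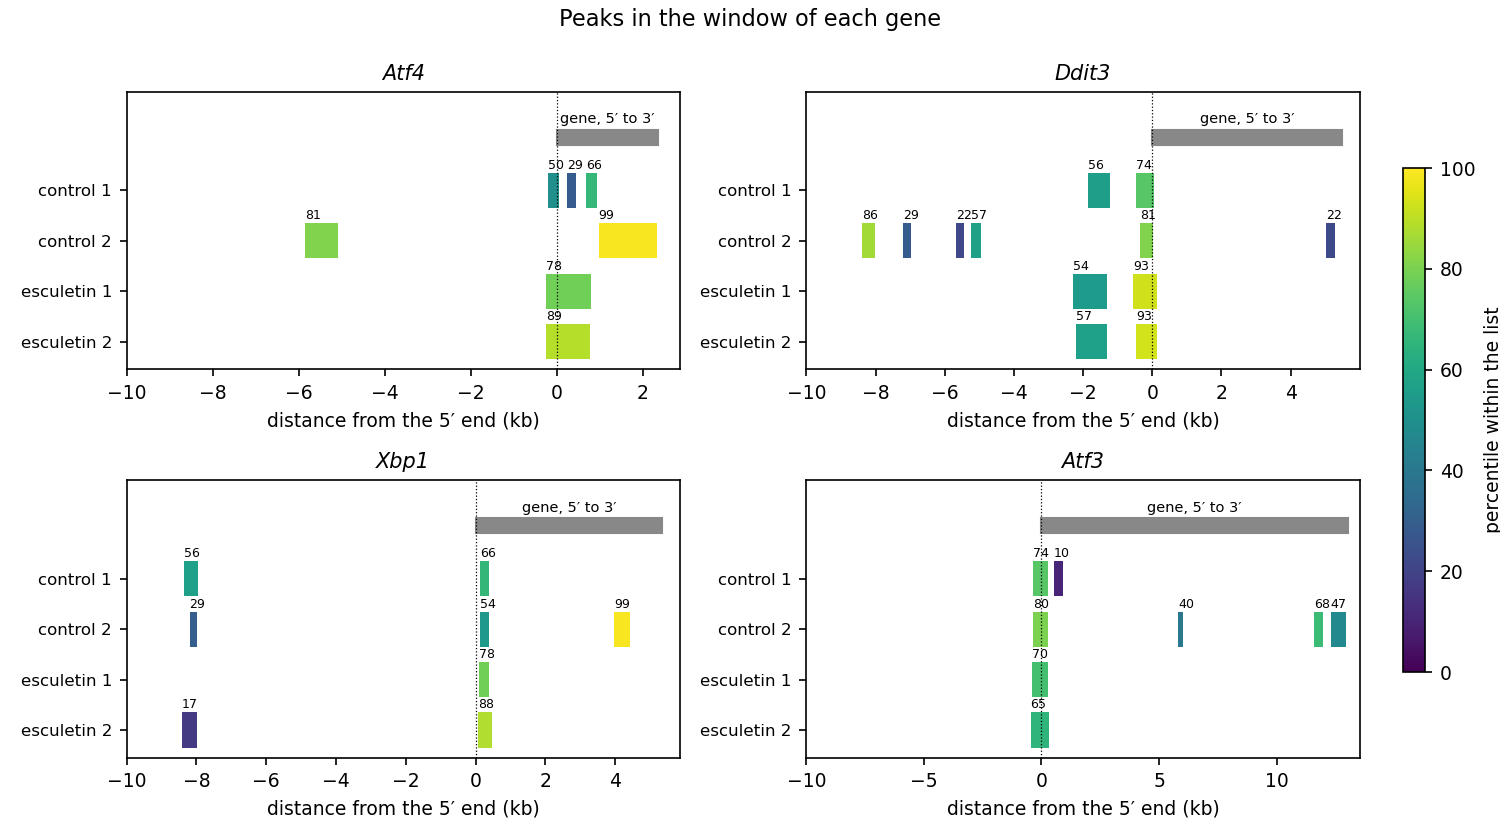
Peaks in the windows of Atf4, Ddit3, Xbp1 and Atf3, by distance from the 5′ end in kb, with 1 row per library. Each block is a peak drawn to scale, its color and number give the percentile within its list, and the grey bar is the gene. The peaks of percentile 99 inside Atf4 and Xbp1 are in control 2 only, and the peak at the Ddit3 start is in all 4 libraries.

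Xbp1 encodes the factor that IRE1 activates by splicing. Its promoter percentile was 66.3 in control 1, 54.1 in control 2, 78.3 in esculetin 1 and 88.0 in esculetin 2. As at Atf5, the controls were the lower pair. DMSO averaged 60.2 ± 8.67 and esculetin 83.2 ± 6.86 percentile points (SD, n = 2 for both), which differ by 23.0 (exact permutation p = 0.33). Over genome background the values were 5.68, 9.31, 8.85 and 12.7, and there control 2 exceeded esculetin 1, so the groups overlapped on that scale. Ranked among promoters open in all 4 libraries, the difference was 48.3. The summit lay 229 to 289 bp past the start in all 4 libraries, outside the 250 bases that precede it. The peak was narrow, 257 and 270 bp in the controls and 306 and 393 bp in the esculetin libraries.

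A region with summits 8021 to 8130 bp before Xbp1 was called in control 1 (percentile 56.5), control 2 (29.4) and esculetin 2 (16.6), and not in esculetin 1. Inside the gene, control 2 alone had a peak of 467 bp with its summit 4165 bp past the 5′ end, at percentile 99.1 and 131 summit reads. In the same library the peak at the Xbp1 start had 38 summit reads.

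Atf6, the membrane-bound sensor of the endoplasmic reticulum, had a promoter peak in 3 of the 4 libraries. In control 1 the summit lay 127 bp before the start, at percentile 45.0. Control 2 had a peak 86 bp before the start at percentile 16.0 and another 742 bp past it at 44.4. Esculetin 2 had only a peak 759 bp past the start, at 23.0, and esculetin 1 had none. Thus the peak at the Atf6 start itself was in both controls and in neither esculetin library. The peaks 742 and 759 bp past it lay 12 and 4 bp from the start of Gm9929 and are not assigned to Atf6 alone. With 26 and 20 reads at these summits, presence or absence rests on few reads.

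Atf6 spans 164129 bp, the longest of the 10 genes. Regions centered 14772, 72560 and 101398 bp past its 5′ end were called in both controls and in neither esculetin library. Their percentiles were 59.5 and 55.2, 71.8 and 42.4, and 29.1 and 73.5 in controls 1 and 2. A region centered 158790 bp past the 5′ end had percentile 92.5 in control 1, 70.2 in control 2 and 64.2 in esculetin 2 and was not called in esculetin 1. Esculetin 1, the shortest list, had no peak in the Atf6 window at all.

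Atf1, a close relative of Creb1 that binds the same elements, had the largest percentile difference of the 8 genes but only the fifth largest by summit coverage over background and by rank among shared promoters. Its percentile was 3.93 in control 1, 7.42 in control 2, 22.2 in esculetin 1 and 65.5 in esculetin 2. The esculetin libraries exceeded both controls and were far apart from each other. DMSO averaged 5.68 ± 2.46 and esculetin 43.8 ± 30.6 percentile points (SD, n = 2 for both), which differ by 38.2 (exact permutation p = 0.33). It was higher than that of 99.0% of the 5735 genes. Without esculetin 2 it was 16.5, and without esculetin 1 it was 59.8. Summit reads were 25, 19, 25 and 33, the fewest of any promoter peak of the group in both controls, and over genome background the values were 3.84, 4.66, 5.03 and 8.05.

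Creb1, the factor that protein kinase A activates in response to cAMP, differed more within groups than between them. Its percentile was 29.8 in control 1, 74.6 in control 2, 37.1 in esculetin 1 and 71.7 in esculetin 2. The groups overlapped, with a difference of 2.21 points (exact permutation p = 1). Leaving out control 1 gave −20.2 and leaving out control 2 gave +24.6, so a single library sets its sign. Over genome background the values were 4.30, 9.31, 5.03 and 9.27.

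Atf2 and Atf7, closely related factors that are phosphorylated by stress-activated kinases, both had strong promoters and parted in direction. Atf2 stood at percentile 93.4 in control 1, 83.4 in control 2, 94.0 in esculetin 1 and 98.5 in esculetin 2. Both esculetin libraries were above both controls, esculetin 1 by less than 1 point. DMSO averaged 88.4 ± 7.04 and esculetin 96.3 ± 3.19 percentile points (SD, n = 2 for both), which differ by 7.87 (exact permutation p = 0.33) that became 2.90 without control 2 and 12.8 without control 1. It was 13.7 among promoter peaks and 29.9 at equal list length. Over genome background the values were 8.14, 11.0, 11.3 and 17.1.

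Atf7 stood at percentile 92.9 in control 1, 88.1 in control 2, 82.2 in esculetin 1 and 73.9 in esculetin 2. Both esculetin libraries were below both controls. DMSO averaged 90.5 ± 3.45 and esculetin 78.0 ± 5.90 percentile points (SD, n = 2 for both), which differ by −12.5 (exact permutation p = 0.33). The difference shrank to −1.05 with overlapping groups when every list was held to its 8677 strongest peaks, to −7.15 with overlap by percentile of fold enrichment, and to −8.29 without esculetin 2. Summit reads were 58, 55, 45 and 40, but over genome background the values were 8.91, 13.5, 9.05 and 9.76, and the groups overlapped. In all 4 libraries the summit lay 310 to 335 bp past the start. No test was made of the difference between Atf2 and Atf7.

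**Figure D3:**
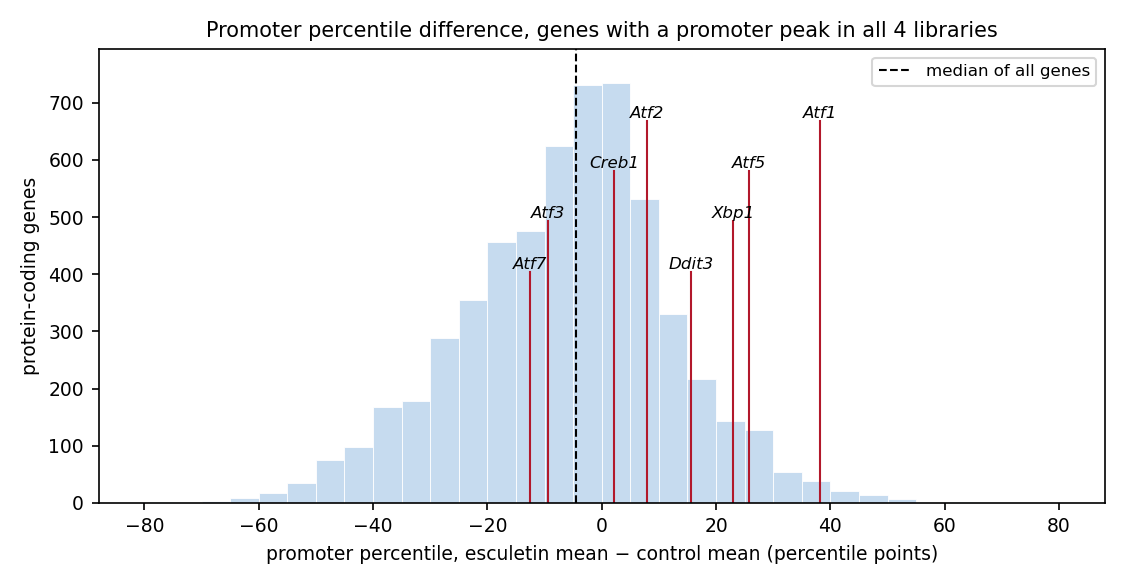
Histogram of the promoter percentile difference (esculetin mean minus control mean, in percentile points) over the 5735 protein-coding genes with a promoter peak in all 4 libraries; the y axis is the number of genes per bin of 5 points. The dashed line is the median of all genes (−4.49) and red lines mark the 8 genes, whose line heights carry no value. Atf1 lies farthest right at 38.2 and Atf7 farthest left of the 8 at −12.5.

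Against all genes, the differences of the 8 promoters were spread over a wide range. The percent of the 5735 genes with a lower difference was 95.8 for Atf5, 94.5 for Xbp1, 90.0 for Ddit3 and 80.1 for Atf2. It was 67.8 for Creb1, 38.7 for Atf3 and 33.4 for Atf7. Atf3 (−9.45) and Atf7 (−12.5) were thus the members that lay below the median gene (−4.49).

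Beyond the promoters, the windows of the 10 genes held far more peaks in control 2 than in any other library. There were 21 peaks in control 1, 36 in control 2, 11 in esculetin 1 and 15 in esculetin 2. Of these, 13, 11, 9 and 10 were promoter peaks, and 8, 25, 2 and 5 were distal, that is over 1 kb from any start of the gene. The promoter peaks in these windows were thus similar in number across libraries, and the distal peaks were not. Among all 21256 genes, those open at a start numbered 8665, 8960, 6422 and 8071 in the same order. The complete lists, at 19595, 27833, 8677 and 12792 peaks, differed more than that. The distal share of the complete lists was not computed, so the contrast is not shown to be particular to these 10 genes. The difference in mean number of distal peaks, esculetin minus control, was −13 and became −4.5 without control 2 and −21.5 without control 1. For all peaks in the windows it was −15.5 and became −8. As shares of the lists, the windows held 0.107%, 0.129%, 0.127% and 0.117% of peaks, so the totals followed list length.

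Most of the distal peaks of control 2 lay inside the genes, toward the 3′ ends of the genes. A peak beyond the midpoint of the gene and over 1 kb from its 5′ end was present in 9 of the 10 genes in control 2 (all but Atf5), against 21.6% of all protein-coding genes in that library. It was present in 1 gene in control 1 (Atf6), against 9.95%. In esculetin 1 it was present in none, against 2.63%, and in esculetin 2 in 2 genes (Atf6 and Atf7), against 4.94%. Among 82 genes of the wider stress pathways the shares were 18.3%, 43.9%, 6.10% and 11.0% in the same order. The pathway genes thus had a higher share than all genes in every library, and control 2 had the most in each set. The part of gene length or of transcript level in these shares was not tested.

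Among the control 2 peaks inside genes that no other library shared, those of Atf4 and Xbp1 were the strongest, at percentiles 99.2 and 99.1. Creb1 had one 64549 bp past the 5′ end at 76.3. Atf3 had 3, at 5944, 11779 and 12693 bp, with percentiles of 40.2, 68.2 and 47.3. Atf2 had 3 beyond its midpoint, with percentiles of 81.5, 58.5 and 11.3. Ddit3 had one at 22.1, 368 bp before its 3′ end, and Atf1 and Atf7 had one each at 7.28. Atf6 had one, 136265 bp past its 5′ end, at 56.1, beside the shared regions given above.

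**Figure D4:**
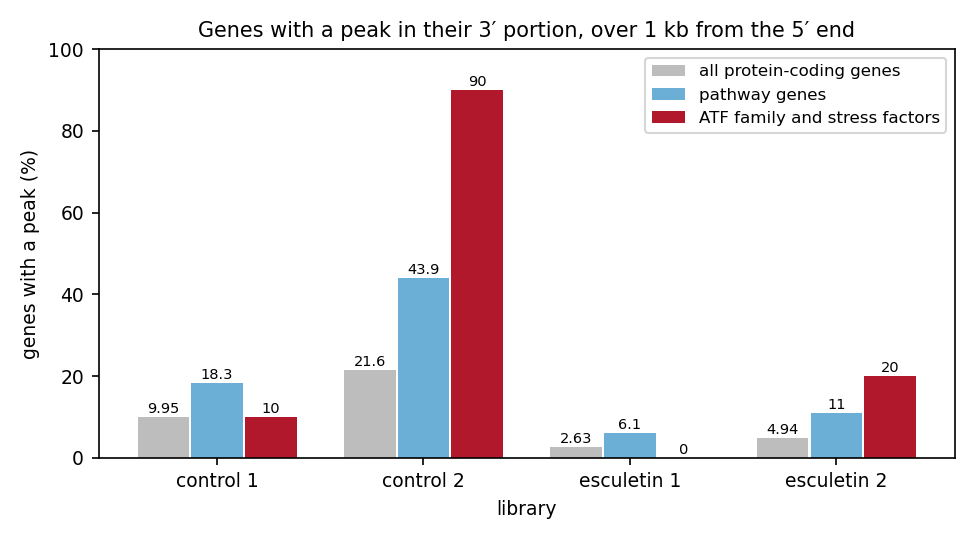
Percent of genes with a peak beyond their midpoint and over 1 kb from the 5′ end, in each library, for all 21256 protein-coding genes (grey), 82 genes of the wider stress pathways (blue) and the 10 genes of the group (red). Bars start at 0 and carry no error, since each is 1 library. Control 2 has the highest bar in every set, 21.6%, 43.9% and 90%.

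When peaks were merged at 1 bp of overlap, the windows held 40 regions, 12 at promoters and 28 distal. All 4 libraries held 9 of them (22.5%), against 17.2% of the 36233 regions that the complete lists gave when merged in the same way. Control 2 alone, the longest list, held 19 (47.5%), each of which was distal, against 34.9% of all regions. Both controls and no esculetin library held 4 (10%), all of them at Atf6, against 13.8%. No region was called in both esculetin libraries and in neither control, a pattern of 0.861% of all regions, and 1, at Atf7, was called in esculetin 2 alone. Control 1 alone held 2, at Atf3 and Atf7. For regions of a single library other than control 2, the share over all regions was not computed.

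A single distal region was called in all 4 libraries, inside Atf2, centered 24619 bp past its 5′ end (chromosome 2, 73867800 to 73868316). Its percentiles were 93.7 in control 1, 88.3 in control 2, 92.8 in esculetin 1 and 90.7 in esculetin 2. The groups overlapped there, with 51, 44, 51 and 46 summit reads. The region was near the Atf2 promoter in control 1 (93.7 against 93.4) and in esculetin 1 (92.8 against 94.0). It stood above the promoter in control 2 (88.3 against 83.4) and below the promoter in esculetin 2 (90.7 against 98.5).

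Apart from the regions nearest Mbd6 and before Xbp1 described above, upstream regions were called in control 2 alone. Ddit3 had 4 of them there, 5122 to 8198 bp before the start, with percentiles of 56.9, 21.7, 28.7 and 86.2. Atf4 had one 5555 bp before the start at percentile 81.0, and Atf7 one 9624 bp before it at 86.5. All 6 were absent from the other lists. Those of Ddit3 lay nearest an annotated start of Mbd6, 3210 to 6286 bp away, which is not the start named for the region above.

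The genes around these factors were read from 5 lists that together held 84 genes, of which 82 were matched (Batf2 and Manf were not). A promoter peak in all 4 libraries was present in 51 (all genes, 27.0%). Of those, 8 lay above in both esculetin libraries, 9 lay below and 34 overlapped, where 14.6% of all genes lay above and 30.1% below. The median difference was −2.40 against −4.49 for all genes. Promoter peaks were in both controls only for 7 genes and in both esculetin libraries only for 2. A further 10 had none in any library, a pattern whose share over all genes was not computed. By summit coverage over background, 6 of the 51 lay above and 3 below, against 18.2% and 10.7% of all genes. Without control 2, 52 were open in the other 3 libraries, of which 12 lay above control 1 and 22 below it, against the 22.1% and 51.2% of all genes given above. In that setting 7 were open in control 1 and no esculetin library, against 5.33% of all genes.

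By role, the genes whose groups did not overlap fell as follows. Of the CREB and ATF relatives, 1 of 7 lay above and none below, and of the cofactors and activators of CREB, 3 of 8 lay above and 1 below. Of the stress sensors and eIF2 kinases, 3 of 6 lay above and none below. Of the ATF4 and CHOP targets, 0 of 10 lay above and 3 below, and of the ATF6 and XBP1 targets, 1 of 20 lay above and 5 below. These counts are to be read against 14.6% above and 30.1% below among all genes. By summit coverage over background, the counts above and below were 1 and 0, 1 and 1, 2 and 0, 1 and 0, and 1 and 2 in that order, against 18.2% and 10.7%. The median percentile differences were 3.20, 0.53, 2.14, −5.20 and −4.51. No test was made between lists.

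The 3 highest separated differences among these genes were those of Fos, Eif2s1 and Hspa5. Fos, an AP-1 subunit that pairs with ATF proteins, had percentiles of 13.7 and 18.8 in the controls and 40.0 and 73.7 in the esculetin libraries. Its difference of 40.6 points became 23.8 without esculetin 2, and over genome background the groups overlapped (5.22 and 8.09 against 6.84 and 11.5). Eif2s1, the eIF2 subunit that stress kinases phosphorylate, had 92.0, 52.1, 96.5 and 98.7 in the order of controls 1 and 2 and esculetin 1 and 2. The difference of 25.5 points became 5.59 without control 2 and 45.4 without control 1. Over genome background Eif2s1 had 8.45 and 7.35 in the controls against 13.3 and 18.0, so its groups did not overlap there. Hspa5, the endoplasmic reticulum chaperone BiP, had 65.2, 72.5, 86.2 and 94.8, but over genome background control 2 had the highest value (21.1 against 7.68, 10.9 and 16.1).

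The 3 lowest were those of Crtc2, Psat1 and Sec61b. Crtc2, a coactivator of CREB, had percentiles of 95.6 and 83.1 in the controls and 32.9 and 38.2 in the esculetin libraries, a difference of −53.8. Over genome background it had 10.1 and 13.0 against 6.64 and 7.56, so the groups did not overlap on either scale. Psat1, a serine synthesis enzyme and ATF4 target, had 89.0 and 83.4 against 29.4 and 67.3. Its difference of −37.9 became −18.9 without esculetin 1 and −56.8 without esculetin 2. At equal list length it was −20.4, with overlapping groups. Over genome background it overlapped, at 7.83 and 11.5 against 4.83 and 8.54. Sec61b, a subunit of the translocon, had 81.5 and 75.2 against 39.0 and 66.3, and its difference of −25.7 became −12.1 without esculetin 1 and −39.4 without esculetin 2. At equal list length it turned to +5.19. It overlapped over genome background as well, at 7.53 and 9.31 against 5.23 and 7.56.

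Genes with a promoter peak in both controls only were Creb5, Eif2ak2, Eif2b1, Eif2b5, Asns, Slc7a11 and Phgdh. Asns, Slc7a11 and Phgdh are ATF4 targets of amino acid supply, and Eif2ak2 (encoding PKR) is an eIF2 kinase. The percentiles of the 7 genes ran from 5.47 (Slc7a11) to 85.1 (Eif2ak2) in control 1 and from 15.9 (Slc7a11) to 84.4 (Phgdh) in control 2. Genes with one in both esculetin libraries only were Jdp2 (38.4 and 32.2), a repressor related to Atf3, and Derl3 (9.78 and 80.1), a factor of endoplasmic reticulum-associated degradation. Of all protein-coding genes, 3.76% and 0.423% had these patterns, and the control lists were the longer ones.

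For each gene open in all 4 libraries, the protein-coding gene with the nearest set of 4 percentiles was found among 5734 others, by the sum of absolute differences over the 4 libraries. Ddit3 and Atf5 were nearest Mbd6 and Nup62 at a sum of 0, because the pairs share a peak. Atf2 was nearest G3bp2 (2.67 points), Atf3 nearest Spout1 (3.39), Atf7 nearest Ralb (3.61) and Xbp1 nearest Paxbp1 (6.52). Creb1 was nearest Tbp (12.6) and Atf1 nearest Reep4 (29.1). Reep4, like Atf1, stood low in 3 libraries and higher in esculetin 2, with percentiles of 19.1, 14.1, 19.7 and 60.7.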

How the data were processed

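Per the methods and labels, the authors trimmed reads with Trim-Galore, aligned them to mm10 with Bowtie2, used Sambamba to drop duplicate and multi-mapped reads, and called peaks in each library with MACS2. Its options are not given in the sources used here. The deposited lists give for each peak a fold over background (a linear ratio), a −log10 p, a −log10 q and a score that restates the −log10 q. They hold no read counts, so no count model was run. Summit coverage was solved from fold and Poisson p where −log10 p was under 250, with 1 solution for 100% of such peaks, and tested on simulated data. Genes were from RefSeq (GRCm38.p6); strand and starts came from its promoter table for 17492 genes, and for 3764, Atf6 included, strand alone came from GENCODE vM39. Exons and introns of this build were not used here.

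Differences were tested by two-sided exact permutation over 4 libraries with Python 3.11.15, pandas 2.3.3, NumPy 2.4.6 and SciPy 1.17.1; figures used matplotlib 3.10.9. All 10 genes are named. Of the pathway lists, genes were named if open in both libraries of 1 group only, or if among the 3 highest or 3 lowest differences without overlap, and the nearest-pattern gene of each member was named. Members and lists were chosen with earlier results of these data known. Alternatives were another rank measure, reference set, list length, promoter window, threshold, overlap, a replicate block and leaving out each library.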

Additional observations from a re-analysis of the deposited data

How the results depend on the processing

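The differences of Atf1, Atf2, Atf5, Atf7, Ddit3 and Xbp1 kept their sign under every alternative that gave a value, 12 or 13 for each gene, counting the replicate block, which cannot change a difference of means. The groups nevertheless came to overlap at Atf7 (−7.15) and Atf5 (14.3) by percentile of fold enrichment, and at Atf7 (−1.05) and Psat1 (−20.4) at equal list length. With every list held to its 8677 strongest peaks, Atf3 turned to 20.5 and Sec61b to 5.19, Ddit3 became 51.5, Atf2 29.9 and Hspa5 72.7, the median of the members was 25.2 over the 4 genes that still had values, whose median was −0.788 with full lists, the difference in members with a promoter peak went from 0 to 3, that in peaks in the windows from −15.5 to −2.5, and regions called in all 4 libraries from 9 to 5. That setting gave no value for Atf1, Atf5, Xbp1, Creb1, Fos and Eif2s1, which lack a promoter peak in at least 1 shortened list, and a 500 bp window gave none for Hspa5. By summit coverage over genome background, a ratio on another scale, the median of the members was 2.78 and Hspa5 turned to −0.898. Among promoter peaks, Ddit3 was 25.5 and Atf2 13.7. The median was 19.6 among promoter peaks, 20.6 among promoters called in all 4 libraries and 7.87 with a 2 kb window, which added Atf4 as a ninth gene. A −log10 q of at least 5 gave 1 more member with a promoter peak in the esculetin libraries. The cause of these changes was not tested. Leaving out 1 library at a time, the median of the members ran from 10.5 to 18.0, members with a promoter peak from −0.5 to 0.5, peaks in the windows from −23 to −8, distal peaks from −21.5 to −4.5, regions in all remaining libraries from 9 to 11 and Creb1 from −20.2 to 24.6. Without esculetin 2, Creb1 was −15.1. Summit coverage over background, ranking among promoters open in all 4 libraries and the use of the 5′ end alone as the start were chosen after seeing the data, as were the counts of separated genes without control 2.

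The replicate numbers were not known to pair the libraries: over 5735 genes, control 1 minus control 2 and esculetin 1 minus esculetin 2 had a correlation of 0.000545. With the replicate block, the difference of Ddit3 is 15.7 points by construction, and the exact permutation p was 0.5, the smallest that 2 pairs allow. Summits with about 20 reads, as at Atf1 and Atf6, limit what presence or absence can show.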
